A study of Homo sapiens with 24 samples.

Results

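Knockdown of the histone acetyltransferase KAT2A was compared with control in keratinocytes that had not yet been induced to differentiate, across all genes. The cells were N/TERT-1, an immortalised human keratinocyte line, so every library comes from 1 line. Of the 24 libraries of the study, which holds 4 genotypes at 3 culture stages, 8 entered this comparison by their labels. They are the 4 libraries labelled KAT2A_KD and the 4 labelled NT, with 2 of each at the Subconfluent stage and 2 of each at the Confluent stage, here called replicate 1 and replicate 2. Stage was a term of the model. Libraries labelled KAT2B_KD and KAT2AB_KD at the same stages were used only to show where KAT2A_KD stood apart from them. The meaning of NT and the method of knockdown are not given in the sources used here. Nothing in them says that the libraries of a group came from separate cultures, so the p-values measure the spread between libraries, which may be technical.

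KAT2A, also known as GCN5, and its paralog KAT2B, also known as PCAF, transfer acetyl groups to lysines of histones and other proteins. Each can serve as the catalytic subunit of the SAGA and ATAC coactivator complexes. Keratinocytes divide in the basal layer of the epidermis. As they leave it they turn on genes of the spinous, granular and cornified layers, which build keratin filaments, desmosomes and the cornified envelope. Type I and type III interferons act on the same cells through a transcription factor complex that holds STAT2 and IRF9 and binds response elements in front of antiviral genes.

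The 8 libraries held 8010178 to 13712629 reads counted on genes, and the correlation of log2 values between the 2 libraries of a group was 0.979 to 0.989. Levels are given as CPM, the read count of a gene scaled to library depth with TMM factors, and can be compared between libraries but not between genes. All 15 genes of the keratinocyte identity list, among them KRT5 and KRT14, passed the filter on low counts, and their summed level was 26530 CPM or more in each library. Markers of other cell types were scarce. Of 12 fibroblast genes 3 passed the filter, with a summed level of all 12 of 25.4 to 36.1 CPM in NT and 18.7 to 28.8 CPM in KAT2A_KD, most of it FAP, and PDGFRA, DPT and POSTN had no read. Of 12 leukocyte genes 3 passed, with sums of 16.6 to 18.2 CPM in NT and 17.8 to 19.5 CPM in KAT2A_KD, and CD3E, TYROBP and LYZ had no read. Of 10 melanocyte genes 3 passed, with sums of 4.87 to 8.93 CPM in NT and 5.61 to 14.1 CPM in KAT2A_KD, and TYR and DCT had no read. None of 8 endothelial genes passed, and their sum was at most 0.323 CPM.

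The knockdown was seen in each library. KAT2A stood at 30.1 and 32.7 CPM in NT Subconfluent, at 38.5 and 36.4 CPM in NT Confluent, at 3.46 and 4.12 CPM in KAT2A_KD Subconfluent and at 4.0 and 5.06 CPM in KAT2A_KD Confluent. The 4 knockdown libraries lay far below all 4 controls, and the fitted log2 fold change was -3.04 (SE 0.15, adjusted p = 2.42e-07), a level 8.24-fold lower. KAT2B did not pass the test, with a log2 fold change of 0.40 (SE 0.22, adjusted p = 0.462). It stood at 4.06 to 5.58 CPM in NT, at 4.89 and 5.21 CPM in KAT2A_KD Subconfluent and at 6.89 and 7.85 CPM in KAT2A_KD Confluent, and its log2 difference was -0.02 at Subconfluent and 0.83 at Confluent. None of the other 29 SAGA and ATAC subunits passed edgeR's test. None had an unadjusted p under 0.05 either, DESeq2 called 0 of them, and their log2 fold changes ran from -0.39 to 0.37.

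Of 14412 genes tested, 325 (2.26%) differed between KAT2A_KD and NT at an adjusted p under 0.05 in edgeR's quasi-likelihood test. Of these, 184 (1.28%) were higher and 141 (0.978%) were lower in KAT2A_KD. DESeq2 called 497 genes, 278 higher and 219 lower. The count rested on the libraries, since leaving out NT Subconfluent 1 gave 700 calls and leaving out any one of the other 7 gave 162 to 233. The largest falls were mostly of interferon-stimulated genes, and the largest rises took in an actin-bundling protein, serine protease inhibitors and metalloproteases.

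**Figure D1:**
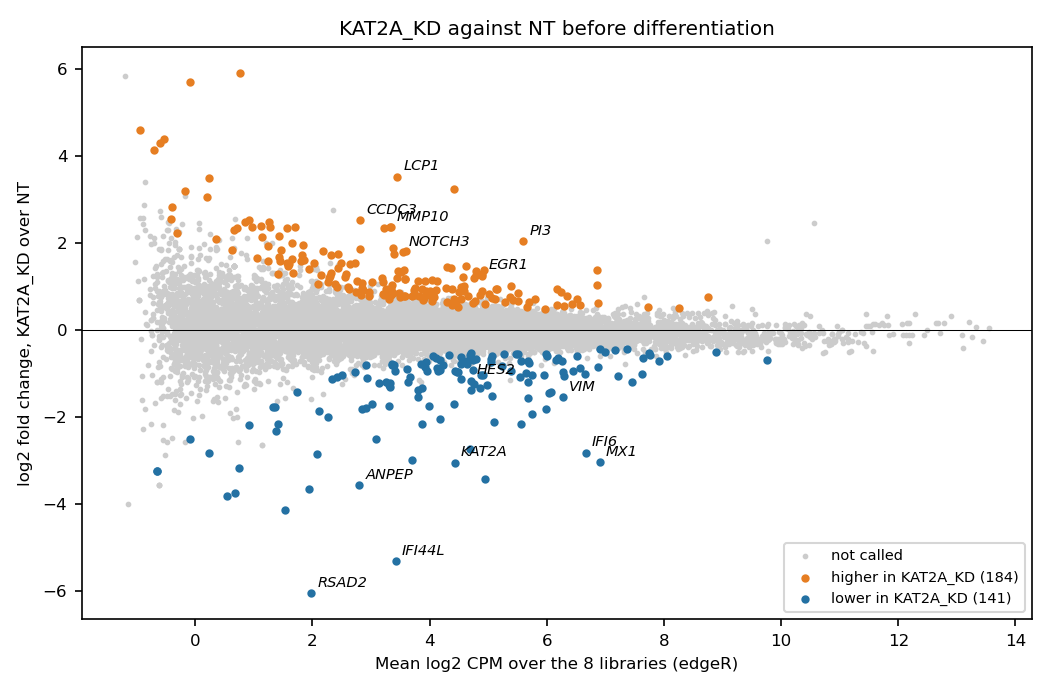
Each point is 1 of the 14412 genes tested, with its mean level (log2 CPM over the 8 libraries) on the x axis and its fitted log2 fold change, KAT2A_KD over NT, on the y axis. Orange points are the 184 genes higher and blue points the 141 genes lower in KAT2A_KD at an adjusted p under 0.05; RSAD2 and IFI44L lie lowest, and among the labelled genes LCP1 lies highest.

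Interferon-stimulated genes fell together. All 40 genes of that list passed the filter, and 32 of them fell and none rose, where 0.978% of all genes tested fell. The median log2 fold change of the list was -1.47, against -0.00444 over all genes. In 34 of the 40, both KAT2A_KD libraries lay below both NT libraries within each stage, as did 6.65% of all genes. With 1 library left out, between 22 and 34 of the 40 were lower.

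To show the sequence in front of genes that fell, the promoters of the 3 list members with the smallest p-values are given, from 250 bases before to 50 bases after the gene start, 5′ to 3′ on the strand of the gene. They come from RefSeq on GRCh38.p14, while the deposited counts were made on hg19. Capitals mark matches, on either strand, to GAAA, any 2 bases and again GAAA, the core of the interferon-stimulated response element. IFI44L lies at chr1:78620198-78620497 and MX1 at chr21:41420308-41420607, and RSAD2 lies at chr2:6865635-6865934, all 3 windows on the plus strand.
IFI44L: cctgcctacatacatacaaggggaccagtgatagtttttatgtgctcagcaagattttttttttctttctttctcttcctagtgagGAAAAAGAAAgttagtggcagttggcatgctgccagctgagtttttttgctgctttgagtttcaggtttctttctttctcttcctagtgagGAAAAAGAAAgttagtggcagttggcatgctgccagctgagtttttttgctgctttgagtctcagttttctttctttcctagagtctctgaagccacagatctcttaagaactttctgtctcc
MX1: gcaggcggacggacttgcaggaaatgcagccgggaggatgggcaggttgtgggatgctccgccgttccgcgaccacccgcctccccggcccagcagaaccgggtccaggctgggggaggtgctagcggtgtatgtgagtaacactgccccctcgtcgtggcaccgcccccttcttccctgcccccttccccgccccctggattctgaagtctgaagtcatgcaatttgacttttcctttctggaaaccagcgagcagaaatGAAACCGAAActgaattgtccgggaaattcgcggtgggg
RSAD2: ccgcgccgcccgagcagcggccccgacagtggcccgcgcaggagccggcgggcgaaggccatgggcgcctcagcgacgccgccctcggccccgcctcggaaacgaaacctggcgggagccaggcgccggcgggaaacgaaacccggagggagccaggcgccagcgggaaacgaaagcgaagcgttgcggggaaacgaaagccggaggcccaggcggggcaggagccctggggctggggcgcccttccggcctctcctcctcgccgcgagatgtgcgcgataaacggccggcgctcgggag
The IFI44L window holds 2 matches, both GAAAAAGAAA, the first starting 164 bases before the gene start. The MX1 window holds 1 match, GAAACCGAAA, which starts 11 bases after it. The RSAD2 window holds none, which says only that these letters are not in this window. The motif was held by 996 (3.65%) of 27305 RefSeq promoters of this length. It was held by 21 (65.6%) of the 32 list members with a promoter there, and by 15 (60%) of the 25 such members that fell.

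MX1, a GTPase that blocks viral replication, stood at 58.0 and 31.3 CPM in NT Subconfluent and at 353 and 350 CPM in NT Confluent, against 9.03 and 10.2 CPM in KAT2A_KD Subconfluent and 23.9 and 27.4 CPM in KAT2A_KD Confluent. Every knockdown library lay below every control library (log2 fold change -3.04, SE 0.29, adjusted p = 0.000121), and the controls at Confluent stood apart from all other libraries. RSAD2, which encodes the antiviral enzyme viperin, stood at 1.52, 0.687, 7.46 and 16.6 CPM in NT and had no read in either KAT2A_KD Subconfluent library and 0.160 and 0.215 CPM in the Confluent ones. Over 4 libraries each it had 359 reads in NT and 4 in KAT2A_KD, a ratio of 83.5 (95% counting interval 32.3 to 308, edgeR adjusted p = 0.000121), and with so few reads no exact fold is given. IFI44L stood at 5.22 and 3.52 CPM in NT Subconfluent, at 24.3 and 40.7 CPM in NT Confluent, and at 0.961 CPM or less in each KAT2A_KD library, with a log2 fold change of -5.31 (SE 0.49). Without KAT2A_KD Confluent 2, where it had no read, that value was -4.68. IFIT1, which binds viral RNA lacking a host cap, fell from 12.4, 8.16, 67.4 and 78.9 CPM in NT to 2.66, 3.36, 5.77 and 7.10 CPM (log2 fold change -2.74, SE 0.30, adjusted p = 0.000256). MX2 (-3.43), IFI44 (-2.98) and IFI6 (-2.82) fell in the same range. BST2, the tetherin that holds budding virus at the cell surface, fell by 3.65 on the log2 scale, and the RNA-degrading pathway's OAS1 and OAS2 by 2.05 and 1.82. CMPK2 fell by 4.14, a value of -3.33 without KAT2A_KD Confluent 1 and -5.10 without KAT2A_KD Confluent 2. Each gene of this paragraph passed in all 8 fits that left out 1 library.

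**Figure D2:**
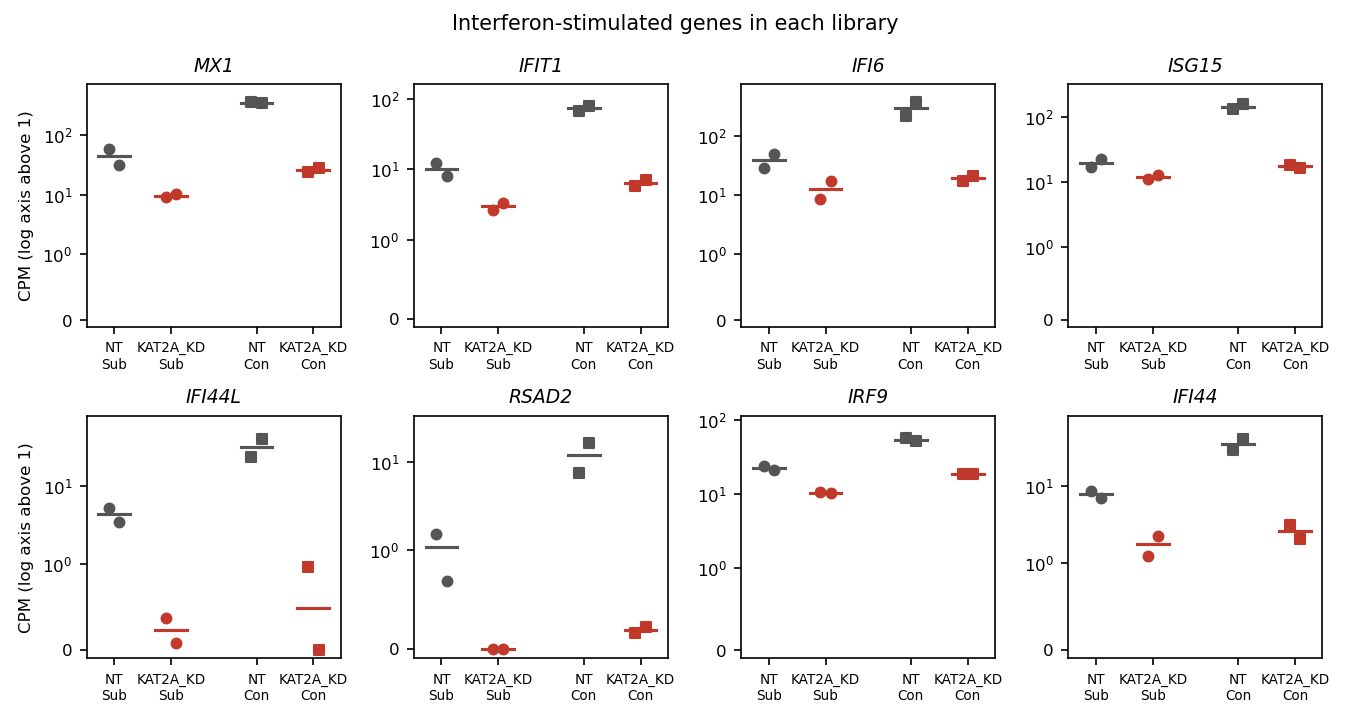
Each panel gives 1 interferon-stimulated gene, with its level in CPM on the y axis (logarithmic above 1, linear below) and the 2 NT (grey) and 2 KAT2A_KD (red) libraries of the Subconfluent (Sub, circles) and Confluent (Con, squares) stages on the x axis; lines are means of 2 libraries. In each panel the red points of a stage lie below its grey points, and the Confluent controls are the highest.

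IRF9, the DNA-binding subunit of the interferon-activated complex ISGF3, stood at 23.9, 21.0, 55.9 and 50.9 CPM in NT and at 10.4, 10.3, 18.2 and 18.5 CPM in KAT2A_KD (log2 fold change -1.32, SE 0.14, adjusted p = 0.000174). IRF7, an interferon-induced activator of interferon genes, fell by 1.75. The RNA sensors DDX58 (RIG-I) and IFIH1 (MDA5) fell by 1.69 and 1.33. These genes also passed in all 8 leave-one-out fits. STAT2 fell by 0.72 with an adjusted p of 0.045, and passed only without NT Subconfluent 2, with 0.0509 to 0.172 otherwise. GBP1 was the list member with a log2 fold change above 0, at 0.06 (adjusted p = 0.906).

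Beside IRF9, IRF7, STAT2, DDX58 and IFIH1, which fell, no change was called among the other genes listed as upstream. Of 24 genes for interferons, their receptors, kinases and other sensors, 18 passed the filter and none passed edgeR's test. Of these, 2 had an unadjusted p under 0.05 (14.1% of all genes had), and DESeq2 called 0. Their log2 fold changes ran from -1.50 to 0.40, with a median of -0.07. The receptor chain IFNAR1 was at -0.22 (adjusted p = 0.574), the kinase JAK1 at -0.00 (adjusted p = 0.995) and the DNA sensor MB21D1 (cGAS) at -0.01 (adjusted p = 0.991). Of 20 genes of MHC class I antigen presentation, 17 had a log2 fold change below 0, with a list median of -0.27. An unadjusted p under 0.05 was found for 7 of the 20 (14.1% of all genes had one), and DESeq2 called 3 lower. In edgeR's test 1 fell (0.978% of all genes did). This was the peptide transporter TAP1 (log2 fold change -0.69, SE 0.15, adjusted p = 0.0254), whose counts the table shares with another gene name and which passed only without NT Subconfluent 1 or KAT2A_KD Subconfluent 2; without 1 of the other 6 its adjusted p was 0.0703 to 0.0964. The class I light chain B2M was at -0.50 (adjusted p = 0.0759), with 239 to 341 CPM in NT and 168 to 229 CPM in KAT2A_KD. The chemokine genes CXCL10 and CXCL11, which draw T cells, were sparse and fell. CXCL10 stood at 0.343 to 4.70 CPM in NT and at 0.0618 to 0.323 CPM in KAT2A_KD (log2 fold change -3.82, SE 0.66, adjusted p = 0.00654, and 0.0612 without NT Confluent 2). CXCL11 had a log2 fold change of -3.16 (SE 0.56, adjusted p = 0.00798), with an adjusted p of 0.0605 without KAT2A_KD Confluent 1 and 0.0695 without NT Confluent 2.

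The stages were then taken apart, as contrasts of 2 against 2 libraries whose spread came from the model of all 8. At Subconfluent 65 genes (0.451%) passed, 41 higher and 24 lower, and at Confluent 113 (0.784%) passed, 37 higher and 76 lower. Of the 40 interferon-stimulated genes 9 were lower at Subconfluent, where 0.167% of all genes were, with a list median of -0.92. At Confluent 34 were lower, where 0.527% of all genes were, with a list median of -2.20. The difference between the stages was itself tested, and 1 gene of 14412 (0.00694%) passed. This was ISG15, the ubiquitin-like protein that is joined to other proteins after interferon. It stood at 17.2 and 22.2 CPM in NT Subconfluent and 11.1 and 12.8 CPM in KAT2A_KD Subconfluent, and at 130 and 157 CPM in NT Confluent and 18.3 and 16.2 CPM in KAT2A_KD Confluent. The log2 effect of the knockdown was -0.71 at Subconfluent and -3.04 at Confluent, a difference of -2.33 (edgeR adjusted p = 0.0199). That call was lost without each of KAT2A_KD Subconfluent 1 (adjusted p = 0.0728), KAT2A_KD Subconfluent 2 (0.158), KAT2A_KD Confluent 1 (0.122), KAT2A_KD Confluent 2 (0.138), NT Confluent 1 (0.0714) and NT Confluent 2 (0.262), and in the fit of all 24 libraries (adjusted p = 1). Over all genes 421 (2.92%) had an unadjusted p under 0.05 for this difference, and DESeq2 called 7 genes, all 7 of them on the interferon-stimulated list. Of the 40 list members, 25 had an unadjusted p under 0.05, and the list median of the difference was -1.21, against 0.01 over all genes.

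**Figure D3:**
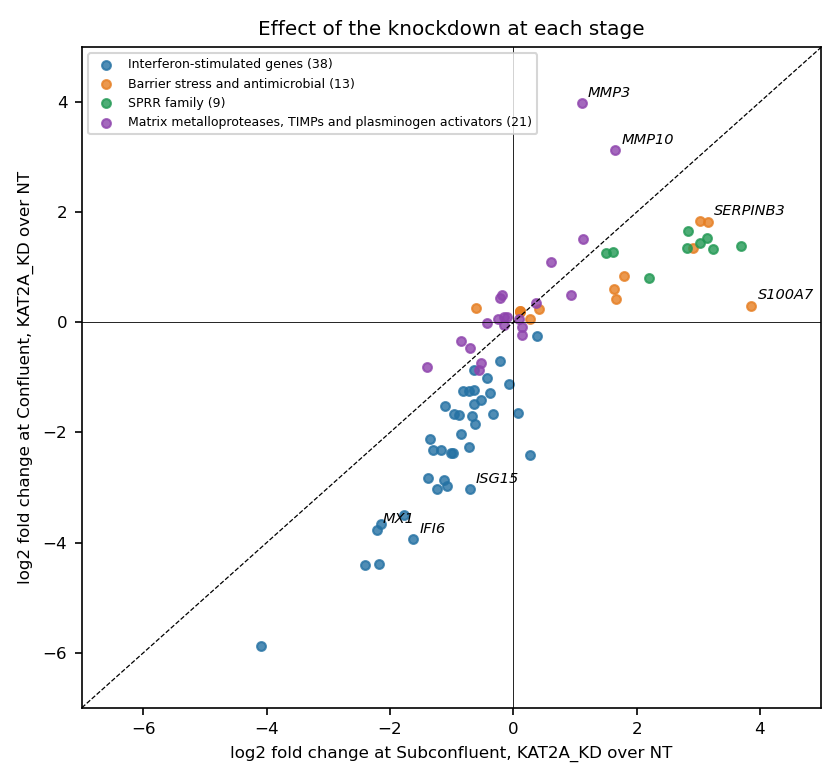
Each point is 1 gene of 4 lists, with its log2 fold change, KAT2A_KD over NT, at Subconfluent on the x axis and at Confluent on the y axis; genes with 3 reads or fewer in any group of 2 libraries are not drawn, and the dashed line marks equal effects. All 38 interferon-stimulated genes drawn lie below the dashed line, and the 9 SPRR genes lie right of 0 and above 0.

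Genes of the differentiating epidermis were higher in KAT2A_KD in part. Of 20 genes of early, spinous differentiation 18 were tested and 4 rose (1.28% of all genes did), with a median log2 fold change of 0.47. KRTDAP, a small secreted protein of the upper epidermis, stood at 1.32 and 0.859 CPM in NT Subconfluent, 6.83 and 9.47 CPM in NT Confluent, 6.0 and 8.40 CPM in KAT2A_KD Subconfluent and 23.7 and 18.1 CPM in KAT2A_KD Confluent. Within each stage both knockdown libraries lay above both controls (log2 fold change 1.87, SE 0.27, adjusted p = 0.00205, passing in all 8 leave-one-out fits). TGM1, the transglutaminase that cross-links the cornified envelope, rose by 1.45 (SE 0.28, adjusted p = 0.0162, and 0.0543 without KAT2A_KD Confluent 1 and 0.0689 without NT Confluent 2). LYPD3, a surface protein of suprabasal cells, rose by 0.72 (adjusted p = 0.0145), with an adjusted p of 0.0728 without KAT2A_KD Confluent 1, 0.0513 without NT Confluent 1, 0.0590 without KAT2A_KD Subconfluent 2 and 0.0530 without NT Subconfluent 2. The desmosomal cadherin DSG1 rose by 1.20 (adjusted p = 0.0456) and passed only without NT Subconfluent 1 or KAT2A_KD Confluent 2, with an adjusted p of 0.0538 to 0.235 without 1 of the other 6. The main spinous keratins did not pass. KRT1 was at 260 to 399 CPM in NT and 255 to 412 CPM in KAT2A_KD (log2 fold change 0.04, adjusted p = 0.922), and KRT10 had a log2 fold change of 0.50 (adjusted p = 0.113). Involucrin, IVL, an early envelope precursor, was sparse, with 0.214 to 0.550 CPM in NT and 0.680 to 1.68 CPM in KAT2A_KD (log2 fold change 1.55, adjusted p = 0.177).

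Later genes of the granular and cornified layers were mostly too sparse to test. Of 24 such genes 11 passed the filter, 3 rose (1.28% of all genes did) and none fell. All 11 had a log2 fold change above 0, and their median was 1.0. A sparse gene can pass the filter through the 1 group where it is high. These signs may thus be set in part by the filter. PPL, the envelope scaffold periplakin, stood at 20.0, 13.1, 35.4 and 34.7 CPM in NT and at 35.2, 40.1, 71.5 and 51.1 CPM in KAT2A_KD (log2 fold change 1.0, SE 0.16, adjusted p = 0.00404, passing in all 8 leave-one-out fits). SCEL, the envelope protein sciellin, rose by 0.77 (adjusted p = 0.0224) and passed only without NT Subconfluent 1, NT Subconfluent 2 or KAT2A_KD Confluent 2, with 0.0592 to 0.0878 without 1 of the other 5. ASPRV1, a protease that processes filaggrin, had 2 reads in the 4 NT libraries and 43 in the 4 KAT2A_KD libraries, a ratio of 23.1 (95% counting interval 6.02 to 197, edgeR adjusted p = 0.0177). It passed only without NT Subconfluent 1, KAT2A_KD Subconfluent 2 or KAT2A_KD Confluent 2, with 0.0513 to 0.104 without 1 of the other 5. Filaggrin itself, FLG, was at 0.515 to 5.65 CPM in NT and 2.60 to 10.8 CPM in KAT2A_KD (log2 fold change 1.02, adjusted p = 0.24).

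The small proline-rich SPRR proteins, which bridge proteins of the cornified envelope, lay higher throughout. Of 11 genes 9 were tested, and in all 9 both KAT2A_KD libraries lay above both NT libraries within each stage, as in 6.4% of all genes. Their median log2 fold change was 2.0, and 4 passed edgeR's test (1.28% of all genes rose), while DESeq2 called all 9. SPRR2A to SPRR2F had log2 fold changes of 1.88 to 2.15. How reads matching several genes were counted is not given, so their values may not be separate. Sparse members may also have passed the filter through the knockdown libraries alone. SPRR1B stood at 8.92 and 9.36 CPM in NT Subconfluent, 15.5 and 28.3 CPM in NT Confluent, 22.2 and 29.6 CPM in KAT2A_KD Subconfluent and 61.9 and 42.3 CPM in KAT2A_KD Confluent. Its log2 fold change was 1.38 (SE 0.20, adjusted p = 0.00205) and that of SPRR1A was 1.43 (SE 0.22, adjusted p = 0.00352), and both passed in all 8 leave-one-out fits; the 2 genes are close copies, so reads may have been split between them. SPRR3 rose by 1.42 (adjusted p = 0.0293) and passed only without NT Subconfluent 1, KAT2A_KD Confluent 2 or NT Confluent 2, with 0.0637 to 0.0962 otherwise. SPRR2D rose by 2.15 (adjusted p = 0.0499) and passed only without NT Subconfluent 1 or NT Confluent 1, the latter with a value of 2.91; without 1 of the other 6 its adjusted p was 0.0591 to 0.162. Of 18 late cornified envelope (LCE) genes 5 were tested and 1, LCE3D, rose (1.28% of all genes did). It had 0 reads in NT Subconfluent, 0.157 and 0.356 CPM in NT Confluent and 0.961 to 1.30 CPM in KAT2A_KD (adjusted p = 0.0396), and passed only without NT Confluent 2, with 0.0598 to 0.139 otherwise.

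**Figure D4:**
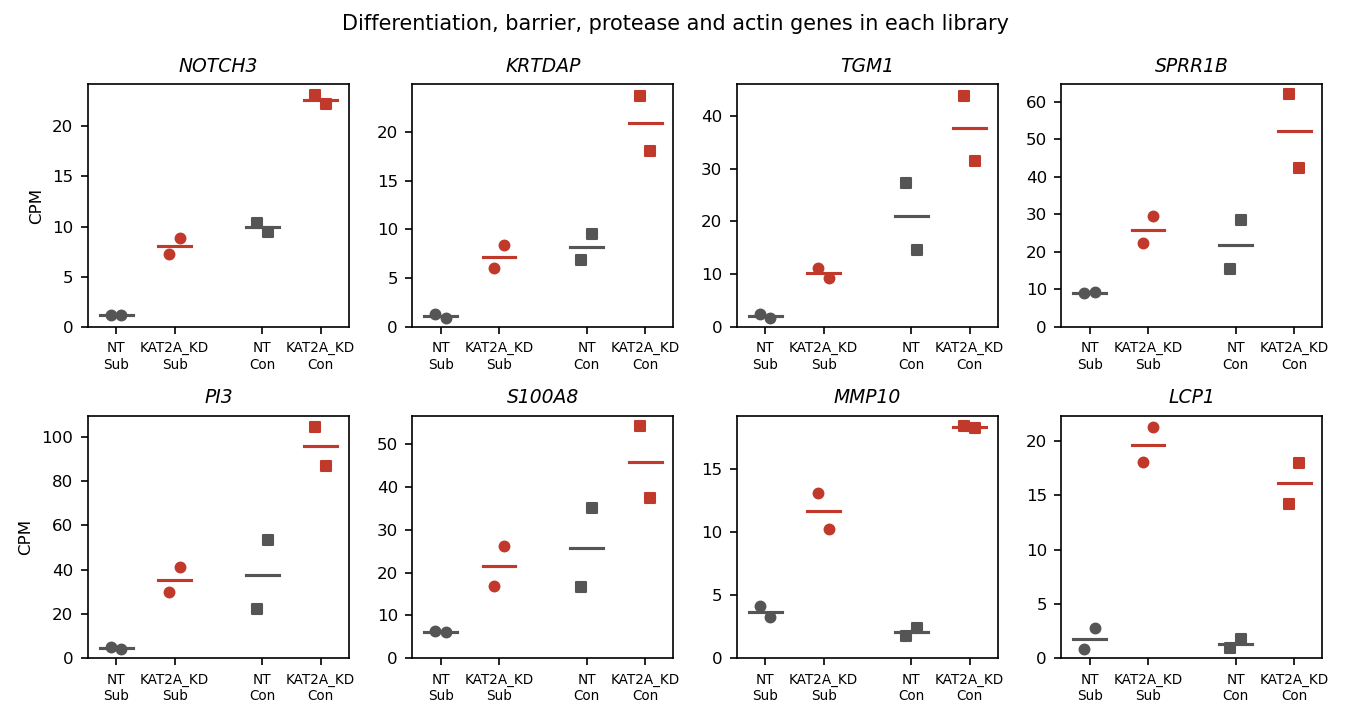
Each panel gives 1 gene, with its level in CPM on the y axis, which starts at 0, and the 2 NT (grey) and 2 KAT2A_KD (red) libraries of the Subconfluent (Sub, circles) and Confluent (Con, squares) stages on the x axis; lines are means of 2 libraries. The red points of each stage lie above its grey points in all 8 panels, and for MMP10 and LCP1 all 4 red points lie above all 4 grey points.

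Among 24 transcription factors of keratinocyte differentiation 22 were tested, and 4 rose (1.28% of all genes did). MAF stood at 0.859 to 1.49 CPM in NT and at 1.92, 2.35, 4.97 and 5.27 CPM in KAT2A_KD (log2 fold change 1.58, SE 0.31, adjusted p = 0.0163). GRHL1, a grainyhead factor that drives desmosomal genes, rose by 1.13 (adjusted p = 0.0248), and ZNF750, a target of p63 that promotes late differentiation, by 1.55 (adjusted p = 0.0462). None of these 3 held in all leave-one-out fits. MAF had an adjusted p of 0.0728 without KAT2A_KD Confluent 1, 0.0720 without NT Confluent 1, 0.0720 without KAT2A_KD Confluent 2 and 0.0669 without NT Confluent 2. GRHL1 had 0.0780 without KAT2A_KD Subconfluent 1, 0.0962 without KAT2A_KD Confluent 1, 0.0772 without NT Confluent 1 and 0.0535 without KAT2A_KD Confluent 2. ZNF750 passed only without NT Subconfluent 1 or KAT2A_KD Subconfluent 2, with 0.0513 to 0.176 otherwise. In the Notch pathway, which drives exit from the basal layer, 21 of 26 genes were tested, 1 rose and 1 fell. Of all genes 1.28% rose and 0.978% fell. The receptor NOTCH3 stood at 1.19 and 1.20 CPM in NT Subconfluent, 10.4 and 9.47 CPM in NT Confluent, 7.24 and 8.82 CPM in KAT2A_KD Subconfluent and 23.1 and 22.2 CPM in KAT2A_KD Confluent (log2 fold change 1.80, SE 0.26, adjusted p = 0.00205). HES2, a repressor of the hairy and enhancer of split family, stood at 27.5 to 35.7 CPM in NT and at 12 to 18.2 CPM in KAT2A_KD (log2 fold change -1.16, SE 0.14, adjusted p = 0.000364). Both passed in all 8 leave-one-out fits, and for HES2 every knockdown library lay below every control. None of 16 tested genes of the epidermal lipid barrier passed edgeR's test, with 4 at an unadjusted p under 0.05 and 2 called by DESeq2.

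Of 25 barrier stress and antimicrobial genes 14 were tested, 5 rose (1.28% of all genes did) and none fell, and the median log2 fold change was 1.04. Sparse members may have passed the filter through the knockdown libraries alone, so the signs and the median may be set in part by the filter. The protease inhibitor SERPINB3 stood at 1.32, 1.12, 6.12 and 4.56 CPM in NT and at 10.4, 11.5, 22.1 and 15.4 CPM in KAT2A_KD, with all 4 knockdown libraries above all 4 controls (log2 fold change 2.37, SE 0.26, adjusted p = 0.000268). Its close copy SERPINB4 rose by 2.33, and reads may have been split between the pair. PI3, the elastase inhibitor elafin, stood at 5.22, 4.12, 22.1 and 53.3 CPM in NT and at 29.7, 41.3, 104 and 86.9 CPM in KAT2A_KD (log2 fold change 2.04, SE 0.32, adjusted p = 0.00351). These 3 passed in all 8 leave-one-out fits. S100A8 and S100A9, the subunits of calprotectin, rose by 1.27 (adjusted p = 0.0196) and 1.03 (adjusted p = 0.0423). S100A8 had an adjusted p of 0.0728 without KAT2A_KD Confluent 1, 0.0742 without NT Confluent 1 and 0.0636 without NT Subconfluent 2, and S100A9 passed only without KAT2A_KD Confluent 2 or NT Confluent 2, with 0.0537 to 0.155 otherwise. DESeq2 did not call S100A9 (adjusted p = 0.0672). The stress keratins KRT6A and KRT16 did not pass, with log2 fold changes of 0.15 (adjusted p = 0.699) and 0.16 (adjusted p = 0.695). Of 33 interleukin-1, interleukin-36 and chemokine genes 18 were tested. Of these 2 fell and 1 rose, where 0.978% of all genes fell and 1.28% rose. Beside the 2 chemokines that fell, IL1RN, the receptor antagonist of interleukin-1, rose by 0.82 (adjusted p = 0.0319) and passed only without NT Subconfluent 1, NT Confluent 1 or KAT2A_KD Confluent 2, with 0.0882 to 0.102 otherwise.

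Of the metalloproteases, which cleave collagen and matrix glycoproteins, 4 rose. Of 24 genes of metalloproteases, their TIMP inhibitors and plasminogen activators 22 were tested, with a median log2 fold change of 0.01. Of these 4 rose and 1 fell, where 1.28% of all genes rose and 0.978% fell. MMP10, stromelysin-2, stood at 4.16, 3.26, 1.81 and 2.42 CPM in NT and at 13.1, 10.2, 18.4 and 18.3 CPM in KAT2A_KD (log2 fold change 2.35, SE 0.27, adjusted p = 0.00035). MMP1, interstitial collagenase, stood at 4.29, 4.29, 5.42 and 8.83 CPM in NT and at 9.77, 8.99, 21.1 and 19.0 CPM in KAT2A_KD (log2 fold change 1.33, SE 0.19, adjusted p = 0.00198). In both genes every knockdown library lay above every control, and both passed in all 8 leave-one-out fits. MMP3, stromelysin-1, rose by 2.36 (adjusted p = 0.0306), but passed only without KAT2A_KD Subconfluent 2 or NT Subconfluent 1, the latter with a value of 3.06; otherwise its adjusted p was 0.0543 to 0.135. MMP13, collagenase-3, rose by 2.35 (adjusted p = 0.0297), with an adjusted p of 0.0780 without KAT2A_KD Subconfluent 1, 0.0544 without KAT2A_KD Confluent 1, 0.131 without NT Confluent 1 and 0.176 without KAT2A_KD Confluent 2, and a value of 3.15 without NT Confluent 2. The membrane-bound MMP14 fell by 0.59 (adjusted p = 0.0319), from 180 to 293 CPM in NT to 120 to 198 CPM in KAT2A_KD, and passed only without NT Subconfluent 1 or KAT2A_KD Confluent 2, with 0.0548 to 0.145 otherwise. None of TIMP1, TIMP2 and TIMP3 passed, with log2 fold changes from -0.10 to -0.01.

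MMP10 is shown for its AP-1 element, a site of the FOS and JUN proteins. Its promoter window is chr11:102780579-102780878 on the minus strand of GRCh38.p14, from RefSeq, written 5′ to 3′ along the gene, with the match to TGANTCA in capitals.
MMP10: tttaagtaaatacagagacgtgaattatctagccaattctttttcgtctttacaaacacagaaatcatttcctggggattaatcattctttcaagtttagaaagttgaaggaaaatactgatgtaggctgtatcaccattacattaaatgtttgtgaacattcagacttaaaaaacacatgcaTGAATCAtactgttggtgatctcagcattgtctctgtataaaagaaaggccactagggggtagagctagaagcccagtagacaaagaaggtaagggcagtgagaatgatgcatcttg
The single match, TGAATCA, starts 67 bases before the gene start. Of 27305 promoters 2120 (7.76%) held this motif on either strand, and so did 4 (33.3%) of the 12 metalloprotease list members with a promoter there. Only 2 of those 12 had passed the test, and 1 of the 2 held the motif. MMP1, MMP3 and MMP13, which rose, had no promoter there and could not be searched. Of 28 AP-1 and immediate early genes 24 were tested, 2 rose and 2 fell, where 1.28% of all genes rose and 0.978% fell. EGR1, an immediate early transcription factor, stood at 12.9 to 17.8 CPM in NT and at 29.7 to 42.9 CPM in KAT2A_KD, with no overlap (log2 fold change 1.25, SE 0.13, adjusted p = 0.000174). DUSP4, a phosphatase of MAP kinases, fell by 1.08 (SE 0.16, adjusted p = 0.00205), and both passed in all 8 leave-one-out fits. The FOS gene rose by 1.11 (adjusted p = 0.0323) and passed only without NT Subconfluent 1 or NT Confluent 2, with 0.0544 to 0.106 otherwise. ETV5, an ETS factor downstream of ERK signalling, fell by 0.94 (adjusted p = 0.0173, and 0.0603 without KAT2A_KD Confluent 1 and 0.0567 without NT Confluent 1).

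Outside these lists the largest rise was that of LCP1, an actin-bundling protein best known from blood cells. It stood at 0.859, 2.75, 0.942 and 1.78 CPM in NT and at 18, 21.2, 14.2 and 18 CPM in KAT2A_KD. The groups were far apart at both stages (log2 fold change 3.52, SE 0.29, adjusted p = 4.21e-05, 11.5-fold). The leukocyte gene PTPRC (CD45) held 29 reads in the 4 NT libraries and 38 in the 4 KAT2A_KD libraries. Of 25 tested genes of actin bundling and motility, LCP1 was the one that rose (1.28% of all genes did), and none fell. CCDC3, which encodes a secreted protein, stood at 1.12 to 2.83 CPM in NT and at 5.69 to 15.0 CPM in KAT2A_KD (log2 fold change 2.52, SE 0.24, adjusted p = 0.000121). CCNA1, cyclin A1, rose by 2.35 (SE 0.39, adjusted p = 0.0052), from 0.198 to 1.88 CPM to 1.93 to 5.93 CPM. These 3 passed in all 8 leave-one-out fits.

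The other large rises held less well. HSD17B3, a steroid dehydrogenase, rose by 2.49 (adjusted p = 0.0141, and 0.0683 without KAT2A_KD Confluent 1 and 0.0710 without NT Confluent 2). HMCN1, the matrix protein hemicentin-1, rose by 2.36 (adjusted p = 0.0128, and 0.0518 without NT Confluent 1 and 0.0553 without KAT2A_KD Confluent 2). SULT1E1, the estrogen sulfotransferase, rose by 2.38 (adjusted p = 0.0247). Its adjusted p was 0.0772 without KAT2A_KD Subconfluent 1, 0.134 without KAT2A_KD Confluent 1, 0.0781 without NT Confluent 1 and 0.0643 without NT Subconfluent 2, and its value was 3.23 without NT Confluent 2. RMRP, the RNA of the RNase MRP particle, stood at 1.59 to 5.42 CPM in NT and at 8.22, 3.28, 13.1 and 120 CPM in KAT2A_KD. The single high library, KAT2A_KD Confluent 2, set much of its log2 fold change of 3.25 (adjusted p = 0.0266), which was 1.80 without it. Without KAT2A_KD Subconfluent 1, NT Confluent 1 or NT Confluent 2 its adjusted p was 0.0780, 0.138 and 0.139.

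The 12 largest falls were taken from called genes of average log2 CPM 1 or more, with no overlap of genotypes within each stage. Among them 2 genes other than KAT2A were not interferon-stimulated list members. ANPEP, the surface protease aminopeptidase N, stood at 20.2, 13.7, 6.60 and 4.20 CPM in NT and at 1.92, 1.09, 0.400 and 0.323 CPM in KAT2A_KD. Every knockdown library lay below every control (log2 fold change -3.57, SE 0.29, adjusted p = 4.21e-05, 11.8-fold). ANGPTL4, a secreted inhibitor of lipoprotein lipase, stood at 4.13 to 8.67 CPM in NT and at 1.76 CPM or less in KAT2A_KD (log2 fold change -2.85, SE 0.44, adjusted p = 0.00351). Both passed in all 8 leave-one-out fits.

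Of 30 mesenchymal and TGF-beta response genes 26 were tested, and 3 fell and 3 rose, where 0.978% of all genes fell and 1.28% rose. Vimentin, VIM, the intermediate filament of mesenchymal and cultured cells, stood at 107, 161, 75.9 and 75.5 CPM in NT and at 35.2, 44.6, 34.0 and 24.6 CPM in KAT2A_KD (log2 fold change -1.55, SE 0.16, adjusted p = 0.000187). MFAP5, a protein of elastic microfibrils, stood at 60.6 to 77.2 CPM in NT and at 17.4 to 31.5 CPM in KAT2A_KD (log2 fold change -1.56, SE 0.16, adjusted p = 0.000174). The groups did not overlap for either gene, and both passed in all 8 leave-one-out fits. The antisense gene VIM-AS1 overlaps VIM, and since the strand setting of the counting is not given its reads cannot be told apart from those of VIM. The receptor TGFBR2 fell by 0.44 (adjusted p = 0.0472) and passed in none of the 8 leave-one-out fits, with 0.0504 to 0.192. TAGLN, an actin-binding protein, rose by 1.12 (adjusted p = 0.0128, and 0.0615 without NT Confluent 1 and 0.0624 without NT Confluent 2). CTGF, a matricellular target of YAP and TGF-beta, rose by 0.90 (adjusted p = 0.017) and passed only without NT Subconfluent 1, KAT2A_KD Subconfluent 2 or KAT2A_KD Confluent 2, with 0.0508 to 0.0824 otherwise. N-cadherin, CDH2, had 0 to 0.396 CPM in NT and 0.968 to 2.10 CPM in KAT2A_KD (log2 fold change 3.06, adjusted p = 0.0182) and passed only without NT Subconfluent 1, NT Confluent 1 or KAT2A_KD Subconfluent 2, with 0.0544 to 0.0845 otherwise. So the list moved in both directions, with a median of -0.07. Of the fibroblast markers FAP fell by 0.77 (adjusted p = 0.0212), with an adjusted p of 0.0908 without KAT2A_KD Subconfluent 1, 0.0745 without KAT2A_KD Confluent 1, 0.0776 without NT Confluent 1 and 0.0553 without NT Confluent 2. Of the 3 fibroblast markers tested, 2 had a log2 fold change above 0, and the list median was 0.82. In these 2 both KAT2A_KD libraries lay above both NT libraries within each stage, and neither was called. The part of fibroblasts in these values was not tested.

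Of 24 basal and adhesion genes, all tested, 2 rose and 1 fell, where 1.28% of all genes rose and 0.978% fell, and the median was 0.02. KRT5 and KRT14, the keratins of the basal layer, were at 0.07 (adjusted p = 0.88) and 0.18 (adjusted p = 0.639) on the log2 scale. The basal regulator TP63 rose by 0.52 (adjusted p = 0.0457), from 146 to 169 CPM in NT to 179 to 293 CPM in KAT2A_KD, and P-cadherin, CDH3, fell by 0.50 (adjusted p = 0.0308), from 452 to 551 CPM to 341 to 383 CPM. In both the groups did not overlap. Each passed only without NT Subconfluent 1, with 0.0608 to 0.166 for TP63 and 0.0564 to 0.157 for CDH3 otherwise. ASS1, which makes argininosuccinate, rose by 0.81 (adjusted p = 0.0212, and 0.0978 without KAT2A_KD Confluent 1, 0.0755 without KAT2A_KD Subconfluent 2 and 0.0820 without NT Confluent 2).

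Genes of the dividing cell lay slightly higher with few calls. All 30 mitosis genes had a log2 fold change above 0, from 0.04 to 0.75 with a median of 0.22, where 49.3% of all genes did. None passed edgeR's test, 9 had an unadjusted p under 0.05, as had 14.1% of all genes, and DESeq2 called 2. MKI67, the Ki-67 proliferation antigen, stood at 214, 127, 102 and 111 CPM in NT and at 220, 237, 177 and 262 CPM in KAT2A_KD (log2 fold change 0.75, adjusted p = 0.0581). Of 32 replication genes 1 rose (1.28% of all genes did). This was MCM6, a subunit of the replicative helicase, at 64.7 to 74.2 CPM in NT and 96.3 to 112 CPM in KAT2A_KD (log2 fold change 0.56, SE 0.11, adjusted p = 0.0159, and 0.0837 without KAT2A_KD Subconfluent 1 and 0.0662 without NT Subconfluent 2). Of 23 tested p53 targets and CDK inhibitors 2 fell (0.978% of all genes did) and none rose, with a median of -0.26. The kinase gene PLK3 fell by 0.92 (SE 0.16, adjusted p = 0.00804) and passed in all 8 leave-one-out fits, while the death receptor FAS fell by 0.58 (adjusted p = 0.0456) and passed only without NT Subconfluent 1, with 0.0577 to 0.157 otherwise. The CDK inhibitor CDKN1A was at -0.45 (adjusted p = 0.0751). Of 24 tested genes of the ATF4 amino acid response 2 rose (1.28% of all genes did). PHGDH, the first enzyme of serine synthesis, rose from 55.2 to 73.6 CPM to 91.5 to 117 CPM (log2 fold change 0.71, adjusted p = 0.0077) and passed in all 8 leave-one-out fits but not in the fit of all 24 libraries (adjusted p = 0.0593). ASNS, asparagine synthetase, rose by 0.67 (adjusted p = 0.0334) and passed only without NT Subconfluent 1 or NT Confluent 2, with 0.0656 to 0.123 otherwise.

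Several lists gave no call in edgeR's test, and their counts at an unadjusted p under 0.05 stand against 14.1% of all genes. For 17 tested lysine deacetylases no gene had an unadjusted p under 0.05 and DESeq2 called 0. For 28 genes of the MYC network and ribosome biogenesis the counts were 3 and 0. For 24 genes of cholesterol synthesis they were 2 and 0, for 12 EGF receptor genes and ligands 3 and 1, and for 25 hypoxia and glycolysis genes 3 and 1. Of 20 other lysine acetyltransferases 1 was called higher, where 1.28% of all genes were. This was the tubulin acetyltransferase ATAT1 (adjusted p = 0.0456), whose counts are shared with another gene name. It passed only without NT Subconfluent 1 or KAT2A_KD Subconfluent 2, with 0.0908 to 0.176 otherwise.

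Other fits ended some of the calls against NT that are named above. In the fit of all 24 libraries the adjusted p was 0.558 for ASNS, 0.258 for MCM6, 0.206 for TGFBR2, 0.149 for FAS, 0.144 for DSG1, 0.14 for CTGF and 0.123 for ATAT1. It was 0.0996 for S100A9, 0.0986 for MMP13, 0.0976 for ETV5, 0.085 for CXCL11, 0.0656 for CDH3, 0.064 for ASS1, 0.0604 for FOS, 0.0593 for PHGDH and 0.0589 for CDH2. In the fit of the 16 libraries of both stages it was 0.165 for CTGF, 0.164 for ATAT1, 0.146 for DSG1, 0.0831 for SPRR3, 0.0544 for FOS and 0.0505 for ASNS. With an interaction term in the model of 8 libraries, averaged over the stages, it was 0.0662 for TGFBR2, 0.0655 for FAS, 0.0609 for DSG1, 0.0538 for ZNF750 and 0.0504 for both CDH3 and TP63. The log2 fold changes of these genes kept their sign in each of these fits.

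The KAT2A_KD libraries were then set against the other knockdowns at the same stages, in a fit of all 16 libraries. Against KAT2B_KD, 202 of 14971 genes (1.35%) differed, 155 (1.04%) higher and 47 (0.314%) lower in KAT2A_KD. Of the SPRR list 7 of 9 genes were higher and of the barrier stress list 7 of 14, and none was lower in either. The limit set by the filter on sparse members of these lists holds here too. The psoriasin gene S100A7 stood at 2.86 to 4.89 CPM in KAT2A_KD, while KAT2B_KD had 0.228 CPM in 1 library and no read in the other 3 (adjusted p = 0.000618); its close copy S100A7A stood at 1.92 to 3.66 CPM against at most 0.228 CPM (adjusted p = 0.00211). Both passed in all 8 fits that left out 1 of these libraries. Against NT neither S100A7 nor S100A7A passed edgeR's test. Their log2 fold changes there were 1.46 (adjusted p = 0.251) and 1.31 (adjusted p = 0.343). PI3 stood at 0.989, 1.37, 2.15 and 9.45 CPM in KAT2B_KD, all below the 29.7 to 104 CPM of KAT2A_KD (log2 difference 4.46, SE 0.41, adjusted p = 8.65e-06). SPRR1B stood at 1.60, 2.68, 6.31 and 15.0 CPM in KAT2B_KD, a log2 difference of 2.83 (SE 0.28, adjusted p = 1.46e-05). For PI3 and SPRR1B the KAT2B_KD libraries lay below the NT libraries of the same stage. These differences are thus not the size of the change from NT, which was 1.38 for SPRR1B. KRTDAP (3.34), MMP10 (2.42), LCP1 (2.35) and NOTCH3 (2.04) were also higher in KAT2A_KD. Of the genes of this paragraph NOTCH3 was the one that lost its call with 1 library left out: it passed only without KAT2B_KD Confluent 2, with 0.0506 to 0.0947 otherwise.

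On the lower side stood ANPEP, DES and VIM-AS1. ANPEP stood at 12.7, 13.6, 8.16 and 6.17 CPM in KAT2B_KD, a log2 difference of -3.55 (SE 0.36, adjusted p = 1.46e-05). DES, the muscle intermediate filament desmin, was 3.25 lower on the log2 scale, a difference of -3.25 (adjusted p = 0.00121). VIM stood at 291, 278, 160 and 160 CPM in KAT2B_KD, a log2 difference of -2.64 (SE 0.15, adjusted p = 3.15e-09), and VIM-AS1 differed by -3.25 (adjusted p = 0.000355). These 4 passed in all 8 leave-one-out fits. The VIM levels of KAT2B_KD lay above the NT levels of the same stage, and the log2 fold change of VIM in KAT2A_KD against NT was -1.55. None of the 40 interferon-stimulated genes passed edgeR's test, 8 had an unadjusted p under 0.05 (10.7% of all genes had), DESeq2 called 0, and the list median was 0.34. MX1 stood at 4.18, 5.22, 15.7 and 18.8 CPM in KAT2B_KD, a log2 difference of 0.78 (SE 0.36, adjusted p = 0.437), and IRF9 at 7.38 to 18.2 CPM, a difference of 0.19 (SE 0.20, adjusted p = 0.839). EGR1 (0.25, SE 0.17, adjusted p = 0.672) and MFAP5 (-0.25, SE 0.16, adjusted p = 0.625) did not pass either. A p that misses the threshold does not show equal levels.

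Against the double knockdown KAT2AB_KD, 18 of 14971 genes (0.12%) differed, 8 (0.0534%) higher and 10 (0.0668%) lower in KAT2A_KD. KAT2A itself stood at 8.29, 10.4, 7.35 and 1.67 CPM in KAT2AB_KD, a log2 difference of -0.77 (SE 0.34, adjusted p = 0.707). KAT2B stood at 1.92, 1.19, 2.96 and 0.902 CPM there, a difference of 1.79 (SE 0.37, adjusted p = 0.0668). KAT2A passed only without KAT2AB_KD Confluent 2, the library with 1.67 CPM (-1.14, adjusted p = 0.0123), and KAT2B only without KAT2AB_KD Confluent 1 (2.17, adjusted p = 0.0357). VIM was lower still in the double knockdown, at 13.4, 13.5, 8.78 and 9.30 CPM, so that KAT2A_KD was higher by 1.63 (SE 0.15, adjusted p = 1.82e-05). QPCT, which forms pyroglutamate at the ends of peptides, stood at 1.26 to 3.23 CPM in KAT2A_KD and 0.0663 to 0.264 CPM in KAT2AB_KD, a difference of 3.42 (adjusted p = 0.00455). FAM50A stood at 2.72 to 5.06 CPM against 0.278 to 0.796 CPM, a difference of 2.51 (adjusted p = 0.00276). ACAP1, a GTPase-activating protein of endosomal recycling, stood at 4.12 to 5.87 CPM in KAT2A_KD and at 0.902 to 1.66 CPM in KAT2AB_KD (difference 1.80, adjusted p = 0.00567, and 0.0509 without KAT2A_KD Subconfluent 1). In KAT2B_KD it stood at 1.04 to 1.64 CPM and in NT at 1.29 to 1.92 CPM, so its 4 KAT2A_KD libraries lay above all 12 others of these stages.

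Lower in KAT2A_KD than in the double knockdown were SULT1A3 and SULT1A4, sulfotransferase genes with identical counts in the table, at 12.2 to 17.3 CPM against 28.3 to 45.0 CPM (difference -1.25, adjusted p = 0.00567), and TAGLN (-1.22, adjusted p = 0.027). TAGLN passed only without KAT2AB_KD Confluent 1 or KAT2A_KD Confluent 1, with 0.0591 to 0.167 otherwise. HSD17B3 stood at 1.36 to 5.61 CPM against 6.63 to 20.3 CPM (difference -1.84, adjusted p = 0.0497), and passed only without KAT2AB_KD Confluent 1, with 0.0808 to 0.203 otherwise. VIM, QPCT, FAM50A, SULT1A3 and SULT1A4 passed in all 8 leave-one-out fits. No SPRR gene and no interferon-stimulated gene passed edgeR's test in this comparison. Among the 9 SPRR genes 3 had an unadjusted p under 0.05 (6.67% of all genes had), and DESeq2 called 0. Among the 40 interferon-stimulated genes 9 had an unadjusted p under 0.05, and DESeq2 called 1. SPRR1B was at 37.4, 43.0, 98.4 and 95.9 CPM in KAT2AB_KD (difference -0.77, SE 0.25, adjusted p = 0.38), MMP10 at 22.6 to 42.3 CPM (difference -1.06, SE 0.23, adjusted p = 0.0684, called by DESeq2 at 0.00306) and MX1 at 27.3 to 41.9 CPM (difference -1.17, SE 0.35, adjusted p = 0.294).

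**Figure D5:**
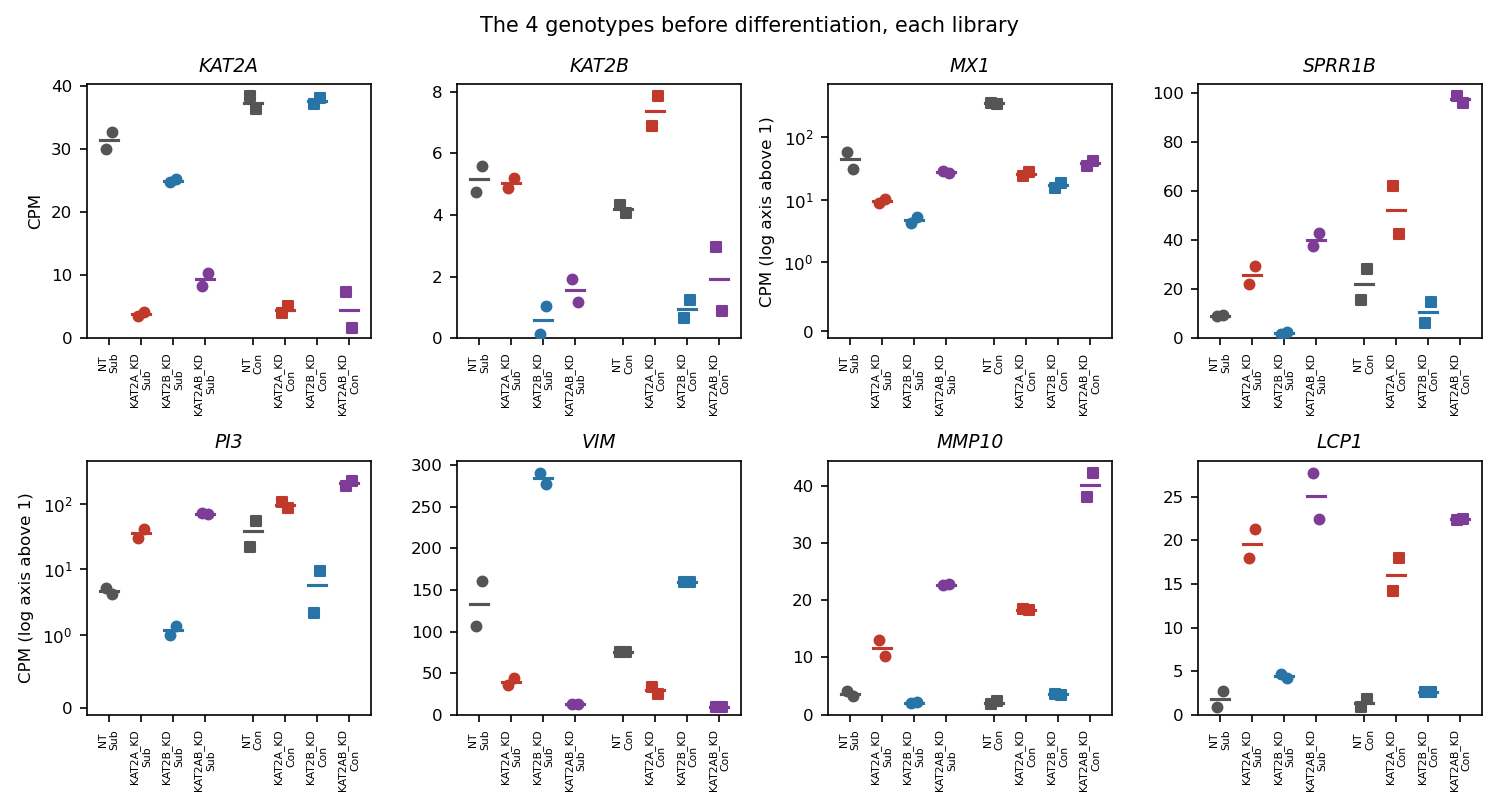
Each panel gives 1 gene, with its level in CPM on the y axis (logarithmic above 1 for MX1 and PI3, linear from 0 otherwise) and the libraries of NT (grey), KAT2A_KD (red), KAT2B_KD (blue) and KAT2AB_KD (purple) at the Subconfluent (Sub, circles) and Confluent (Con, squares) stages on the x axis; lines are means of 2 libraries. MX1 at Confluent is lower in the 3 knockdowns than in NT, while SPRR1B, PI3, MMP10 and LCP1 are highest in KAT2AB_KD, followed by KAT2A_KD, and VIM is lowest in KAT2AB_KD and next in KAT2A_KD. Of these genes VIM passed edgeR's test between those 2 genotypes.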

How the data were processed

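Polyadenylated RNA of N/TERT-1 cells was sequenced as single-end reads from directional libraries, per the labels' protocols. The deposited raw table holds read counts per gene. The submitters' processing notes name FastQC, Bowtie2, featureCounts, DESeq2 and hg19; versions, annotation, strand setting and treatment of multi-mapping reads are not given in the sources used here. A deposited table of signal values, which equals these counts divided by 1 size factor per library (largest relative deviation 5e-07), served only to check the counts and to restore 26 of 28 gene symbols that had become dates. Replicate 1 and replicate 2 follow the order in which the libraries of a group are listed. The replicate numbers of a deposited sample table differ from these names. They served only for the replicate block and the check of pairing. The raw table has 1 column of no listed sample, which was not used.

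Counts were fitted with edgeR 4.0.16 (R 4.3.3): TMM scaling, filterByExpr on groups of stage and genotype, quasi-likelihood test, Benjamini-Hochberg adjustment over all genes tested, threshold 0.05. The comparison with NT used 8 libraries and stage plus genotype (5 residual degrees of freedom), the stage difference an interaction term (4), and the comparisons with KAT2B_KD and KAT2AB_KD 16 libraries. Each SE is the size of the log2 fold change divided by the square root of the F statistic of edgeR's test, which prints none itself. On the 8 libraries the common biological coefficient of variation was 0.183. DESeq2 1.42.0 was an alternative, as were RLE scaling, no filter, a fit of all 24 libraries, a replicate block and leaving out each library. CPM values use TMM factors over all 24 libraries. The main edgeR fit of each comparison was tested first on simulated counts with 1 spread for all genes. The alternative fits were not tested in this way. Named genes were of these kinds: the 12 largest rises and 12 largest falls by log2 fold change, taken from called genes whose average log2 CPM was 1 or more and whose knockdown libraries both lay on one side of both controls at each stage, and up to 4 members of each of 33 lists with the lowest p, with further list members whose outcome is stated. The 3 highest and 3 lowest were named for the other genotypes. The comparison and the lists were chosen with earlier results of these data known. Of 752 list entries 751 were found in the table, 13 under an older symbol. Counting intervals are exact, cover counting error only and have a level of 95%. The table holds 232 gene names that share their counts with another name. Values of some list members are not reported here.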

Additional observations from a re-analysis of the deposited data

Results flagged for a closer look

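The effect of KAT2A_KD on ISG15 differed between the 2 stages by -2.33 on the log2 scale (edgeR adjusted p = 0.0199), with -0.71 at Subconfluent and -3.04 at Confluent. Both KAT2A_KD libraries lay below both NT libraries at each stage. Its adjusted p ran from 0.00516 to 0.262 when 1 library was left out and was 1 in the fit of all 24 libraries.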

How the results depend on the processing

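Of 14412 genes, 325 differed between KAT2A_KD and NT. DESeq2 gave 497, no filter on low counts 725, an adjusted p under 0.01 128, the Subconfluent contrast of the 8-library model 65 and its Confluent contrast 113, and 162 to 700 were called with 1 library left out. RLE scaling gave 322 and the fit of all 24 libraries 284. The share of calls that were higher was 63.1% at Subconfluent and 32.7% at Confluent. For the difference between stages, 1 gene in the main fit, DESeq2 gave 7, no filter 36, the fit of all 24 libraries 0, and leaving out 1 library 0 to 3. Against KAT2B_KD, 202 genes, DESeq2 gave 351, no filter 394 and leaving out 1 library 121 to 160. Against KAT2AB_KD, 18 genes, DESeq2 gave 78, no filter 173 and leaving out 1 library 13 to 23. The causes were not tested, except that the fits without a filter tested more genes and those without a library used fewer.

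Same-numbered libraries of the 4 groups had correlated deviations of -0.0386 to 0.327 over the 6 pairs of groups. Between KAT2A_KD and NT the correlation was 0.327 at Subconfluent and 0.26 at Confluent, and across stages it was -0.0386 to 0.128. Since it was not above 0.1 in each pair, the replicate numbers were not taken as pairing in the main fit. Pairing within a stage may thus have been left out, and the block lowered the common biological coefficient of variation from 0.183 to 0.169. With the replicate block 350 genes differed between KAT2A_KD and NT, 2 between stages, 213 from KAT2B_KD and 22 from KAT2AB_KD.

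Direction changed for genes that did not pass the test. Over the fits without 1 library the lowest and highest log2 fold changes were -0.1615 and 0.3655 for SOX10, -0.0263 and 0.04784 for CD68, -0.04487 and 0.1674 for GBP1, and -0.06385 and 0.04777 for JAK1. They were -0.1758 and 0.1437 for MB21D1, -0.07259 and 0.1417 for KRT1, -0.1365 and 0.07581 for TIMP2, and -0.02794 and 0.1486 for KRT5. In the Confluent contrast the sign turned for SOX10 (-0.1728), GBP1 (-0.25), JAK1 (0.08261), MB21D1 (0.1197), TIMP1 (0.06471) and TIMP2 (0.08972), and in the Subconfluent contrast for KAT2B (-0.02438), KRT1 (-0.06536) and KRT5 (-0.01144). It also turned for CD68 in the fit of all 24 libraries (-0.005147) and for MB21D1 with the replicate block (0.005741). Of the other values of single genes under an alternative, 2884 stayed on their side of the threshold, 354 lost the call and 97 gained it. With the replicate block TGFBR2 lost its call against NT (adjusted p = 0.0536), and no other gene named above did. Where the 4 libraries of a genotype held 5 reads or fewer, no fitted fold is given.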
